A study of Mus musculus with 14 samples.

Results

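Receptors through which the hypothalamus reads metabolic and feeding signals were followed in RNA bound to ribosomes with phosphorylated S6 and in whole-tissue RNA of mice on 2 diets. The 8 genes were chosen by symbol: Lepr, Insr, Igf1r, Ntrk2, Npy2r, Cnr1, Htr2c and Mc4r. The first 7 have an entry in the expression table, which holds 14531 entries in all, and Mc4r was not analysed here.

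All mice were 10-week-old C57BL/6N males of the same genotype, and no transgene, Cre line or drug is named for any group. Those of the HFD group ate a high-fat diet during 3 days, and those of the NCD group ate a control diet, also called normal chow, over the same time. Hypothalami were frozen after dissection and pooled, 8 to a precipitation, so each library stands for a pool and not for 1 animal. Ribosomes carrying phosphorylated S6 were immunoprecipitated (IP), and Input is RNA of the tissue before precipitation. S6 is a protein of the small ribosomal subunit that becomes phosphorylated when a cell is activated through the mTOR and ERK pathways, so the IP fraction is meant to hold messages translated in activated cells. The groups were these: 4 IP libraries on HFD, 3 IP libraries on NCD, 4 Input libraries on HFD and 3 Input libraries on NCD. The labels count 4 precipitations per condition, and 3 of those on NCD were used here. Libraries from a control antibody were not analysed here, so messages that bind to the beads without phosphorylated S6 cannot be told apart from the rest.

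The receptors belong to several classes. Lepr binds leptin from fat and signals through the kinase JAK2, Insr binds insulin, Igf1r binds insulin-like growth factors, and Ntrk2 (TrkB) binds brain-derived neurotrophic factor. The last 3 are receptor tyrosine kinases, and leptin, insulin and brain-derived neurotrophic factor restrain food intake when they act on hypothalamic neurons. The others couple to G proteins. Npy2r binds neuropeptide Y and the gut peptide PYY and acts as a brake on the neurons that release neuropeptide Y, Cnr1 binds endocannabinoids and favours feeding, and Htr2c binds serotonin and reduces feeding, in part through neurons that make proopiomelanocortin.

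Ntrk2 and Lepr make forms that the table does not separate, because it gives 1 value per gene. They are shown as coding sequence of GENCODE M21 transcripts on GRCm38, with the bases shared by both forms in lower case and those that differ between the forms in capitals. For Ntrk2, on the plus strand of chromosome 13, Ntrk2-202 ends with the tail of truncated TrkB, which lacks the kinase domain and is common in astrocytes, while Ntrk2-207 goes on into the kinase part. The capitals lie at chr13:58932024-58932057 and chr13:58985803-58985832.
Ntrk2-202: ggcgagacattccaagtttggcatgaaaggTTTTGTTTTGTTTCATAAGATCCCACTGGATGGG
Ntrk2-207: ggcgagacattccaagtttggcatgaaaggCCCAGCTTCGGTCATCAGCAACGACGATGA
The first 1394 of the 1428 coding bases of Ntrk2-202 are those of Ntrk2-207, which has 2463, so 34 coding bases belong to the truncated form alone.

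For Lepr, on the plus strand of chromosome 4, Lepr-203 ends a short distance inside the cell, and Lepr-201 is the long form, which carries the sites for STAT3 signalling. The short form is known from the choroid plexus as well as from other tissues. The capitals lie at chr4:101811348-101811362 and chr4:101814448-101814477.
Lepr-203: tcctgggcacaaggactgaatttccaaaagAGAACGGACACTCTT
Lepr-201: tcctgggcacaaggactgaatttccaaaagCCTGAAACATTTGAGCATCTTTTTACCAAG
The first 2667 of the 2682 coding bases of Lepr-203 are shared with Lepr-201, which has 3486. A Lepr or Ntrk2 value therefore says nothing of which form was bound to ribosomes.

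Insr and Igf1r are close relatives, and their values would be uncertain if reads could not be assigned to one of them. The longest run that the coding sequences of Insr-201 (4116 bases) and Igf1r-201 (4107 bases) share is 19 bases long and lies in exon 8 of 21 in both. It is given in capitals within its surroundings, at chr8:3192744-3192762 on the minus strand for Insr and at chr7:68187030-68187048 on the plus strand for Igf1r.
Insr-201: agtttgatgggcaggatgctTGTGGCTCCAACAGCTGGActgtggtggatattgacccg
Igf1r-201: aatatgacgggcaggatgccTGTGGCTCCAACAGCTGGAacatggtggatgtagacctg
No stretch of 51 bases occurs in both coding sequences, so 0 such words are shared.

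In GRCm38 the other 3 genes lie at chr3:82538383-82548084 on the minus strand (Npy2r), chr4:33924593-33948831 on the plus strand (Cnr1) and chrX:146962513-147197277 on the plus strand (Htr2c). The loci of the 4 genes above span chr4:101717404-101815352 (Lepr), chr8:3122061-3279617 (Insr), chr7:67952827-68233668 (Igf1r) and chr13:58806569-59133970 (Ntrk2). All 7 are protein coding, and 0 of the 7 have an annotated exon that overlaps an exon of another gene in GENCODE M21.

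Values are FPKM, a fragment count divided by transcript length and library size. Levels of different genes are set side by side as a description only, because the difference between IP and Input still moved with transcript length over all genes, as given below. The number of reads behind the values is unknown. Libraries of 1 group correlated at r = 0.720 to 0.917 across genes in IP and at 0.970 to 0.981 in Input. Mitochondrial transcripts took 2.66% to 15.6% of the summed FPKM in IP and 23.5% to 39.1% in Input. The IP libraries with column index 0 stood apart, with 9.57% (HFD) and 10.9% (NCD) of entries listed at 0, against 0.771% to 5.18% in the other 5 IP libraries and 0.282% to 0.957% in Input. The summed FPKM of 9 neuron markers was 12142 to 15180 in HFD IP, 8764 to 13017 in NCD IP, 5644 to 6366 in HFD Input and 5727 to 6577 in NCD Input, and 0 of the 9 were at 0 throughout a group. Blood markers were richer in IP, with 4 of 5 called higher over both diets and a median log2 difference of 3.59. By the same rule, given below, 23.4% of all genes were called higher. The blood markers had sums of 147 to 470 FPKM in HFD IP, 214 to 718 in NCD IP, 17.2 to 27.3 in HFD Input and 11.6 to 17.1 in NCD Input. Their part in the results was not tested. The sums of 14 hypothalamic markers were 360 to 638 in HFD IP, 437 to 618 in NCD IP, 169 to 241 in HFD Input and 182 to 223 in NCD Input. Markers of the neighbouring thalamus were also present in every library, with sums of 8 genes of 1768 to 2733, 1882 to 2800, 509 to 616 and 564 to 598 FPKM in the same order of groups. Over both diets 6 of the 7 tested were called higher in IP and 1 lower, with a median of 1.78. Of the hypothalamic markers 6 of 13 tested were called higher and 0 lower, with a median of 1.15. The part of thalamic RNA in the receptor values was not tested.

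The receptors differed widely in level, and their order was steadier in Input than in IP. Ntrk2 was the highest of the 7 in each of the 4 groups, with a mean of 73.9 ± 23.7 FPKM in HFD IP, 60.2 ± 20.8 in NCD IP, 104 ± 8.05 in HFD Input and 107 ± 11.9 in NCD Input (SD, n = 4, 3, 4 and 3 libraries). Htr2c came next by its mean in each group, at 13.2 ± 2.5, 18.6 ± 8.48, 20.1 ± 1.43 and 18.7 ± 1.54 FPKM in the same order. In Input, Cnr1, Insr and Igf1r followed between 9.76 and 14.6 FPKM over all libraries, and neighbours among these 3 overlapped in range on both diets. Npy2r and Lepr were the lowest in Input, and each was separated from its neighbour without overlap. In HFD IP, every pair of neighbours below Ntrk2 overlapped (Htr2c, Igf1r, Insr, Cnr1, Lepr and Npy2r in descending order of their means). In NCD IP, Htr2c did not overlap with Igf1r, nor Cnr1 with Lepr, whereas Igf1r, Insr and Cnr1 overlapped as neighbours, and so did Lepr and Npy2r.

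**Figure D1:**
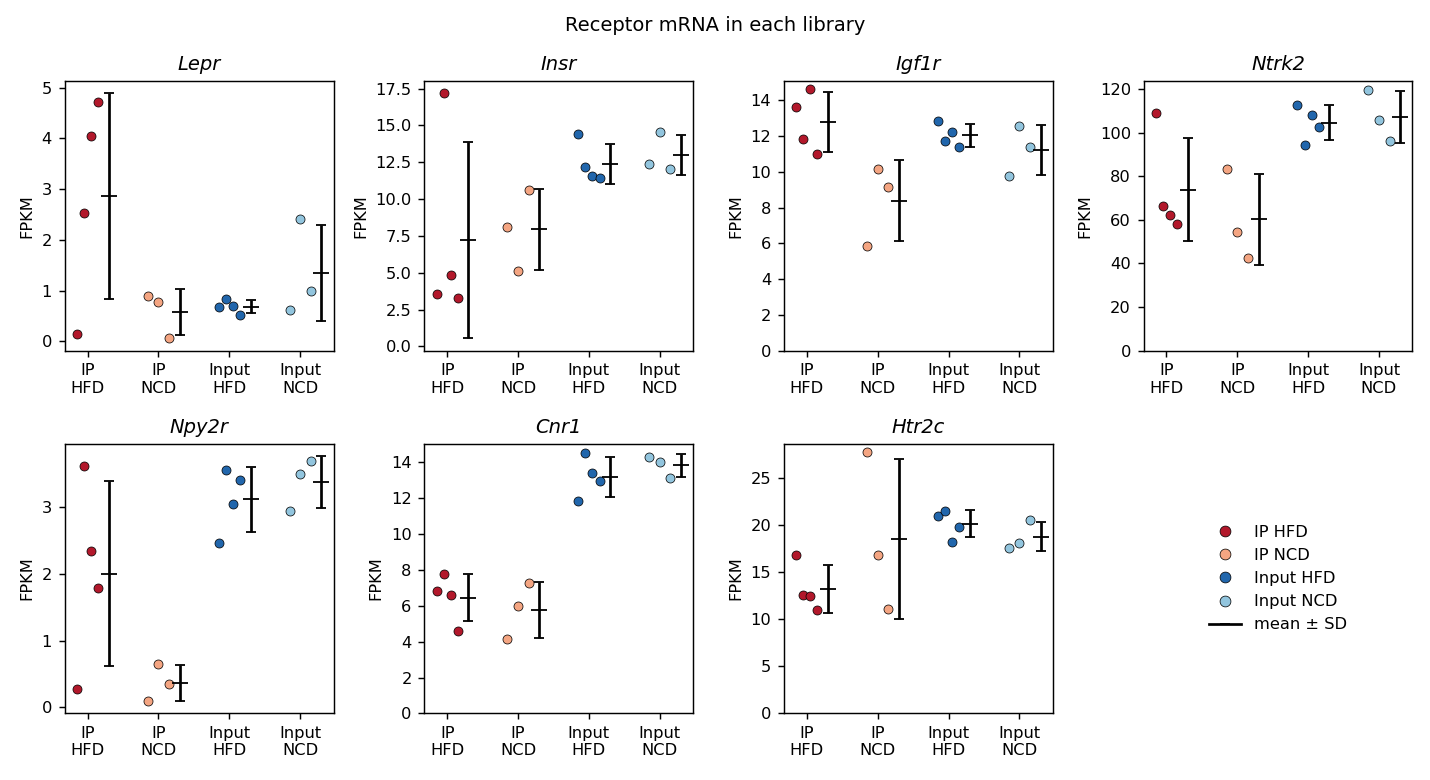
FPKM of each receptor (vertical axes, a scale of its own per gene) in each library (points) of HFD IP, NCD IP, HFD Input and NCD Input, with mean and SD as bars. The Cnr1 values of all 7 IP libraries lie below those of all 7 Input libraries.

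The first comparison asked which receptor messages were richer or poorer in the phosphorylated S6 fraction than in the tissue. Of the 7 receptors, 4 were lower in IP than in Input over both diets, 0 were higher, and 3 did not pass the test. Cnr1, Npy2r, Insr and Ntrk2 were the 4 that fell, by 1.63-fold to 2.21-fold on the log2(FPKM + 1) scale. The call was an adjusted p under 0.05 from limma over all 12478 genes with a mean of at least 1 FPKM. By the same rule 43.9% of all genes were called, 23.4% higher and 20.5% lower, so a call on its own was common in this comparison. The median log2 difference was -0.70 over the 7 receptors and 0.00 over all genes tested. In bulk RNA, fewer cells of a type and less RNA per cell cannot be told apart.

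With quantile normalization between libraries, 42.8% of all called genes were higher in IP, against 53.4% without it. Under it Htr2c and Igf1r were also called lower, with adjusted p-values of 0.00227 and 0.0452. No scaling tried made any of the 7 called higher over both diets. On HFD, though, quantile normalization called Lepr higher (1.34, adjusted p = 0.0142) and Ntrk2 (-1.39, 4.5e-05), Insr (-1.12, 0.0221) and Htr2c (-0.90, 0.0041) lower beside Cnr1, and median-ratio scaling called Ntrk2 (0.0497) and Insr (0.0483) lower. Array weights called Lepr higher on HFD (1.28, adjusted p = 0.0124), Ntrk2 (0.00592) and Htr2c (0.00903) lower on HFD, and Htr2c lower over both diets (0.0425). Lepr passed the minimum of 1 FPKM through the HFD IP libraries alone, so the filter favoured these calls of Lepr.

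**Figure D2:**
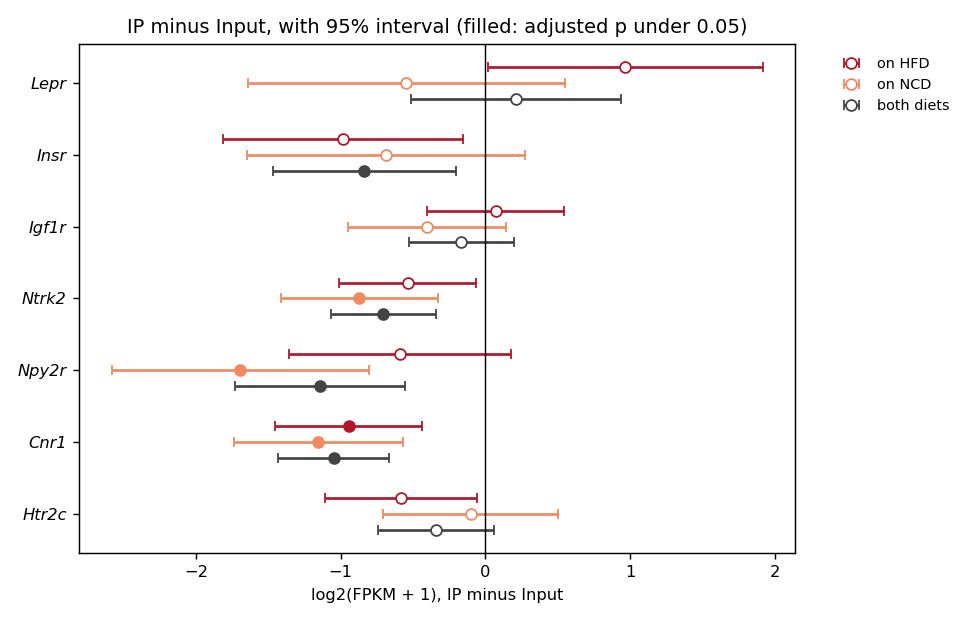
Difference between IP and Input in log2(FPKM + 1) for each receptor (horizontal axis) on HFD, on NCD and over both diets, with 95% intervals as bars. Filled points have an adjusted p under 0.05: Cnr1 in all 3 comparisons, Npy2r and Ntrk2 on NCD and over both diets, and Insr over both diets.

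Cnr1, the CB1 cannabinoid receptor, sits on axon endings and restrains transmitter release. It had 6.81, 7.75, 6.61 and 4.62 FPKM in the HFD IP libraries and 4.15, 5.98 and 7.25 FPKM in the NCD IP libraries. In Input it had 11.8, 14.5, 13.4 and 13.0 FPKM on HFD and 14.3, 14 and 13.1 FPKM on NCD. All 7 IP libraries were below all 7 Input libraries, a separation in the lower direction that 10.2% of all genes showed. The difference was -1.05 ± 0.18 (log2 ± SE, adjusted p = 0.000255), which is 2.07-fold lower in IP. Cnr1 was called on each diet, at -0.94 ± 0.24 on HFD (adjusted p = 0.00641) and -1.15 ± 0.27 on NCD (adjusted p = 0.0061). The NCD call was lost when only NCD libraries entered the fit (adjusted p = 0.0534). The IP to Input ratios in the authors' deposited table were below 1 in 7 of 7 pairs of columns, from 0.289 to 0.575.

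Npy2r, the Y2 receptor, had 0.274, 3.62, 2.34 and 1.78 FPKM in the HFD IP libraries and 0.102, 0.646 and 0.350 FPKM in the NCD IP libraries. Its Input values were 2.46, 3.55, 3.05 and 3.40 FPKM on HFD and 2.94, 3.49 and 3.69 FPKM on NCD. The 3 NCD IP libraries were all below 1 FPKM and below every Input library, while the HFD IP libraries overlapped with HFD Input. Between the NCD groups, 19.4% of all genes were separated in the lower direction. Over both diets the difference was -1.14 ± 0.28 (adjusted p = 0.00346), and on NCD it was -1.69 ± 0.42 (adjusted p = 0.00746). On NCD, 26.6% of all genes were called and 10.8% were called lower. On HFD the difference was -0.59 ± 0.36, with a 95% interval of -1.36 to 0.18 and an adjusted p of 0.229, where 33.6% of all genes were called and 14.6% were called lower. Without the HFD IP library with index 0 it was -0.23 (adjusted p = 0.572). Levels this close to 1 FPKM have their change understated on this scale.

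Ntrk2 had 109, 66.3, 62.2 and 58.0 FPKM in the HFD IP libraries and 83.3, 54.7 and 42.7 FPKM in the NCD IP libraries. Its Input values were 113, 94.1, 108 and 103 FPKM on HFD and 119.7, 106 and 96.0 FPKM on NCD. Apart from the HFD IP library with index 0, which lay among the Input values, every IP library was below every Input library. On NCD, 19.4% of all genes showed a complete separation in the lower direction. The difference was -0.70 ± 0.17 over both diets (adjusted p = 0.00334), and -0.87 ± 0.26 on NCD (adjusted p = 0.0203). On HFD it was -0.54 ± 0.22 (adjusted p = 0.0743), and without the library with index 0 it was -0.74 (adjusted p = 0.00927). The NCD call was lost without the NCD IP library with index 2 (adjusted p = 0.0727) and without the NCD Input libraries with index 0 (0.0805) or index 1 (0.0593). It was also lost when only NCD libraries entered the fit (0.0703).

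Astrocyte markers, like Ntrk2, were mostly lower in IP. Of 10 fixed markers 9 were in the table and tested, and 7 of the 9 were called lower in IP (20.5% of all genes were), with a median of -1.36. S100b was the 1 of them called higher (23.4% of all genes were), a call lost with quantile or median-ratio scaling. Their summed FPKM was 277 to 482 in HFD IP, 282 to 578 in NCD IP, 810 to 906 in HFD Input and 811 to 853 in NCD Input, and 0 of the 9 were at 0 throughout a group. Within each IP group the library with index 0 had both the highest sum of astrocyte markers, 482 on HFD and 578 on NCD, and the highest Ntrk2. In HFD IP the other libraries kept the same order in both, but in NCD IP they did not. There index 1 had the lower sum, 282, and the higher Ntrk2, 54.7 FPKM, against 367 and 42.7 FPKM for index 2. Mature oligodendrocyte markers were also mostly lower in IP, with 7 of 10 called lower and a median of -1.21, while 1, Cldn11, was called higher. The sums of these markers were 537 to 731 FPKM in HFD IP, 612 to 992 in NCD IP, 1364 to 1529 in HFD Input and 1277 to 1619 in NCD Input. Their highest sums in IP, 731 on HFD and 992 on NCD, were again those of index 0. The part of astrocyte and oligodendrocyte RNA in the Ntrk2 result was not tested.

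Insr had 3.53, 17.2, 4.86 and 3.31 FPKM in the HFD IP libraries and 8.09, 5.14 and 10.6 FPKM in the NCD IP libraries. Its Input values were 14.4, 12.2, 11.6 and 11.5 FPKM on HFD and 12.4, 14.6 and 12 FPKM on NCD. The HFD IP library with index 1 was above every Input library, while the other 6 IP libraries were below every one of them. The difference of -0.84 ± 0.30 over both diets just passed (adjusted p = 0.0329). It was lost, with adjusted p-values of 0.0503 to 0.0779, in 10 of the 14 fits that leave out 1 library: HFD IP index 0, 2 or 3, NCD IP index 1, HFD Input index 0, 1 or 2, or NCD Input index 0, 1 or 2. It was lost as well without both IP libraries with index 0 (adjusted p = 0.0551). On HFD the difference was -0.98 ± 0.39 (adjusted p = 0.0644) with all libraries and -1.46 (adjusted p = 0.00117) without the high library. On NCD it was -0.69 ± 0.45 (adjusted p = 0.284), with the 3 IP libraries below the 3 Input libraries, a separation in the lower direction that 19.4% of all genes showed.

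Igf1r, the nearest relative of Insr, did not pass in any of the 3 comparisons of fractions. It had 13.7, 11.9, 14.6 and 11 FPKM in the HFD IP libraries and 5.87, 10.2 and 9.16 FPKM in the NCD IP libraries. The Input libraries held 12.9, 11.7, 12.2 and 11.4 FPKM on HFD and 9.76, 12.6 and 11.4 FPKM on NCD. IP and Input overlapped on both diets. The difference was -0.17 ± 0.17 over both diets, with a 95% interval of -0.53 to 0.20 (adjusted p = 0.456). It was 0.07 ± 0.22 on HFD (adjusted p = 0.834; -0.17 with quantile normalization) and -0.40 ± 0.26 on NCD (adjusted p = 0.268).

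Htr2c, known for its high level in choroid plexus as well as in neurons, had 16.8, 12.6, 12.5 and 11 FPKM in the HFD IP libraries and 27.8, 16.9 and 11.1 FPKM in the NCD IP libraries. In Input it had 21, 21.5, 18.3 and 19.8 FPKM on HFD and 17.6, 18.1 and 20.5 FPKM on NCD. On HFD the 4 IP libraries were below the 4 Input libraries, a separation that 19.3% of all genes showed in this direction. The difference there was -0.58 ± 0.25 (adjusted p = 0.081). Without the HFD IP library with index 0 it was -0.70 (adjusted p = 0.0436). On NCD the groups overlapped, with the highest and the lowest of the 6 libraries both in IP, and the difference was -0.10 ± 0.28 (adjusted p = 0.83; 0.20 without the NCD IP library with index 2). Over both diets it was -0.34 ± 0.19, with an interval of -0.74 to 0.06 (adjusted p = 0.156). Without the NCD IP library with index 0 it was -0.51 (adjusted p = 0.013).

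Choroid plexus markers were richer in IP, and of 13 fixed markers 11 were in the table. Over both diets 9 of the 11 were called higher in IP (23.4% of all genes were), with a median of 1.31. Their sums were 384 to 1832 FPKM in HFD IP, 425 to 901 in NCD IP, 107 to 263 in HFD Input and 133 to 181 in NCD Input, and 0 of the 11 were at 0 throughout a group. In NCD IP the 3 libraries kept the same order in Htr2c and in these sums (901, 516 and 425 FPKM for index 0, 1 and 2). In HFD IP they did not: the library with the highest sum, 1832, had the lowest Htr2c of its group. Ttr held 1364 and Enpp2 386 FPKM of that sum, so the sums mostly follow these genes and not all 11 markers alike. The part of choroid plexus RNA in the Htr2c result was not tested.

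Lepr had 0.143, 2.52, 4.06 and 4.72 FPKM in the HFD IP libraries and 0.890, 0.773 and 0.0569 FPKM in the NCD IP libraries. In Input it had 0.678, 0.831, 0.699 and 0.520 FPKM on HFD and 0.625, 2.41 and 0.984 FPKM on NCD. On HFD, 3 of the 4 IP libraries were above every Input library, and the one with index 0 was below all of them. The difference was 0.97 ± 0.45 on HFD (adjusted p = 0.108), with an interval of 0.02 to 1.92. It was 1.48 without the HFD IP library with index 0 (adjusted p = 0.00328). On NCD it was -0.55 ± 0.51 (adjusted p = 0.475) with overlapping groups, and over both diets 0.21 ± 0.34 (adjusted p = 0.645). With a pseudocount of 0.1 in place of 1 the last value was -1.04e-05, so no direction over both diets can be read from it. Lepr averaged 1.42 FPKM over the 14 libraries and 0.847 without the HFD IP libraries, so it passed the minimum of 1 FPKM through that group alone. The other 6 receptors passed it whichever group was left out, with means of at least 1.92.

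Choroid plexus sums, which are mostly Ttr and Enpp2, are the values to set beside Lepr too. The 2 HFD IP libraries with the highest Lepr, 4.06 and 4.72 FPKM, had sums of 1238 and 1832 FPKM, but the library with 0.143 FPKM had a sum of 1258 and the one with 2.52 FPKM had the lowest sum of the group, 384. Their part in the Lepr result was not tested.

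**Figure D3:**
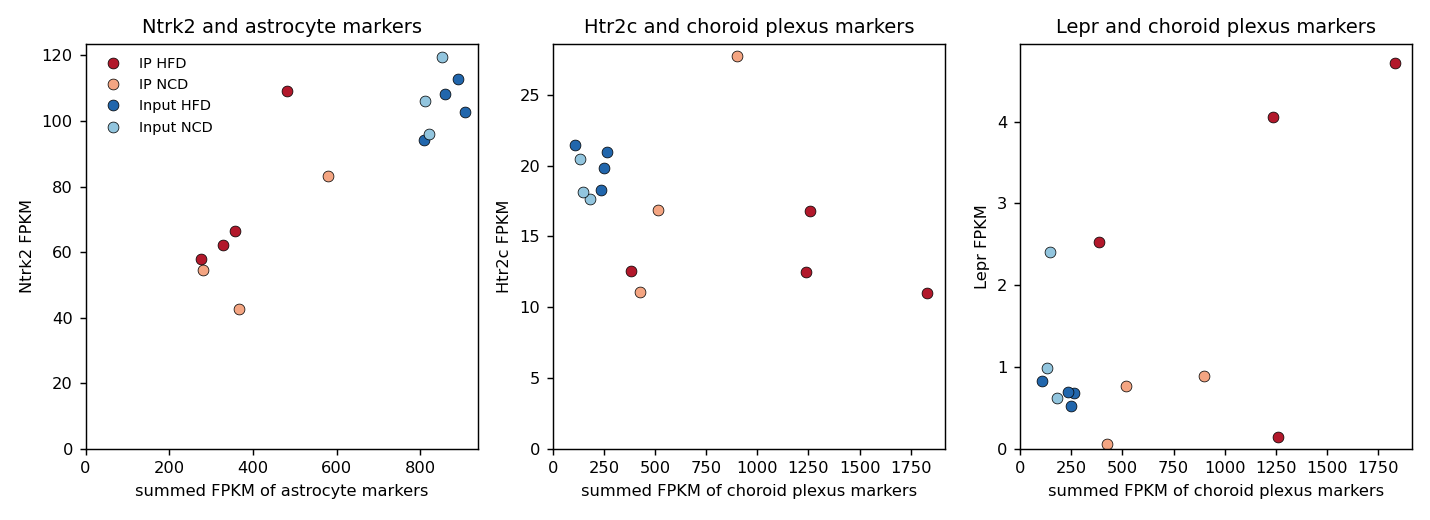
Receptor FPKM (vertical axes) against the summed FPKM of a marker list (horizontal axes) in each of the 14 libraries, for Ntrk2 with astrocyte markers and for Htr2c and Lepr with choroid plexus markers. IP and Input libraries lie apart on each horizontal axis, and among HFD IP libraries a Lepr of 0.143 FPKM stands beside a choroid plexus sum of 1258 FPKM.

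Transcript length moved with the difference between fractions over all genes. Lengths of the longest annotated transcript were found for 12472 of 12478 tested genes. The median log2 difference of IP to Input over both diets was 0.69 for 2905 genes of up to 2000 bases, 0.05 for 4775 genes of 2000 to 4000 bases and -0.27 for 2905 genes of 4000 to 6000 bases. It was -0.43 for 1105 genes of 6000 to 8000 bases and -0.62 for 782 longer genes. Npy2r (3364 bases), at -1.14, and Cnr1 (5807 bases), at -1.05, were far below the medians of their classes. Ntrk2 (8744 bases), at -0.70, and Insr (9355 bases), at -0.84, were nearer to theirs, in a class of which 50.1% was called lower. Igf1r (11409 bases), at -0.17, and Lepr (5542 bases), at 0.21, were above their class medians, and Htr2c (4883 bases), at -0.34, was near it. The part of length in the receptor results was not tested.

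**Figure D4:**
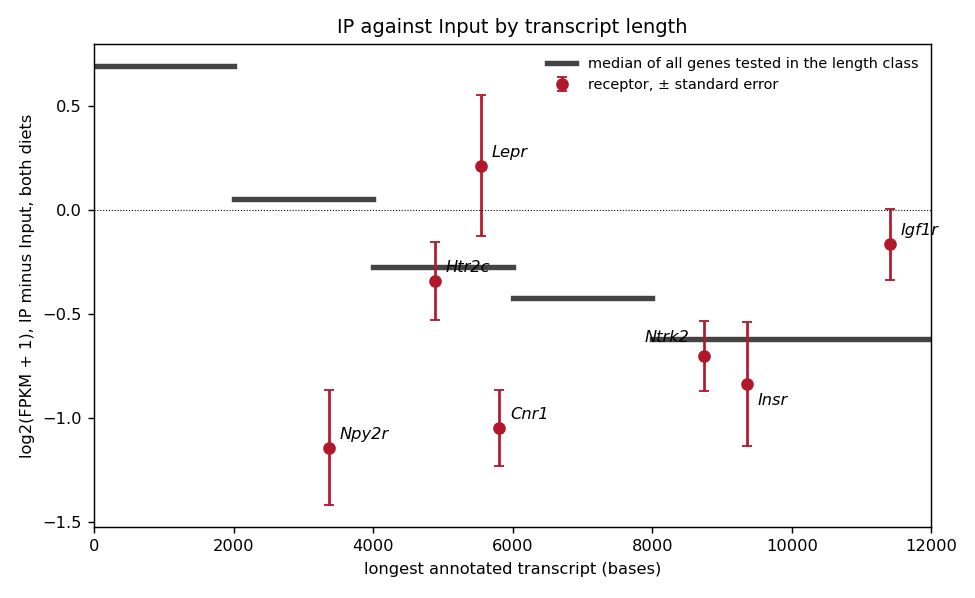
Difference between IP and Input in log2(FPKM + 1) over both diets (vertical axis) against the length of the longest annotated transcript in bases (horizontal axis) for the 7 receptors, with standard errors. Horizontal bars give the median of all tested genes in each length class, which goes down to -0.62 above 8000 bases. Npy2r and Cnr1 lie below their bars, and Lepr and Igf1r above.

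The second comparison asked whether receptor messages differed after the high-fat diet within a fraction. In IP, 0 of the 7 receptors and 0 of all 12478 genes passed an adjusted p of 0.05 in limma (0%), while 713 genes (5.71%) had an unadjusted p under 0.05. Higher means on HFD were seen for Lepr, Npy2r, Igf1r, Ntrk2 and Cnr1, and lower ones for Insr and Htr2c, none of them past the threshold.

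The HFD and NCD libraries of IP, given above for each receptor, did not overlap for Igf1r alone among the 7. All 4 HFD values of Igf1r, from 11 to 14.6 FPKM, were above the 3 NCD values, from 5.87 to 10.2 FPKM, as 3.21% of all genes were (6.34% in either direction). The difference was 0.57 ± 0.42, with an interval of -0.35 to 1.5 (adjusted p = 0.847). The mean was 12.8 ± 1.66 FPKM on HFD and 8.40 ± 2.24 FPKM on NCD. In the authors' deposited table the IP to Input ratios of Igf1r were 1.06, 1.01, 1.20 and 0.966 on HFD and 0.602, 0.809 and 0.805 on NCD, with a log2 difference of 0.52 and a p-value of 0.0199 that is not adjusted for multiple tests. That p-value is for the ratio and not for IP alone. The matching limma test, the third comparison below, gave 0.48 ± 0.34 (adjusted p = 0.816). The authors' p-values of the other receptors were 0.0778 to 0.906, and the share of all genes under 0.05 was not counted.

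Lepr and Npy2r had the widest differences between diets in IP. Lepr, though, passed the minimum of 1 FPKM through the HFD IP libraries alone, so the filter favoured a difference in this direction. For Lepr the mean was 2.86 ± 2.03 FPKM on HFD and 0.573 ± 0.451 FPKM on NCD, and 3 of 4 HFD libraries were above all NCD libraries. The difference was 1.11 ± 0.63, with an interval of -0.27 to 2.49 (adjusted p = 0.813). For Npy2r the mean was 2.0 ± 1.38 FPKM on HFD and 0.366 ± 0.272 FPKM on NCD, again with 3 of 4 HFD libraries above all NCD libraries, and the difference was 1.01 ± 0.53 (-0.15 to 2.18; adjusted p = 0.813). The exception was the HFD IP library with index 0 in both genes. Without it the differences were 1.61 for Lepr and 1.38 for Npy2r, neither past the threshold (adjusted p = 0.851 each). Of the 11 choroid plexus markers, 0 passed this comparison and 10 were above 0, as were 48.4% of all genes. Their median was 0.83, against -0.02 over all genes, and their part in the Lepr values was not tested. The authors' deposited table gives log2 differences of 2.91 for Lepr and 2.53 for Npy2r in the IP to Input ratio, with unadjusted p-values of 0.128 and 0.0778. Its ratios for Lepr were 0.211, 3.04, 5.80 and 9.07 on HFD and 1.42, 0.320 and 0.0578 on NCD, and those for Npy2r were 0.112, 1.02, 0.766 and 0.524 on HFD and 0.0349, 0.185 and 0.0950 on NCD.

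The remaining 4 receptors were further from the threshold between diets in IP. Ntrk2 stood at 0.30 ± 0.33 (-0.43 to 1.03; adjusted p = 0.906) and Cnr1 at 0.14 ± 0.50 (-0.95 to 1.23; adjusted p = 0.97). Insr stood at -0.36 ± 0.62 (-1.71 to 0.99; adjusted p = 0.939), with group means of 7.22 ± 6.68 FPKM on HFD and 7.96 ± 2.75 FPKM on NCD. Htr2c stood at -0.38 ± 0.42 (-1.31 to 0.54; adjusted p = 0.904). Leaving out 1 library gave 0.082 (NCD IP index 2) to 0.56 (NCD IP index 0) for Ntrk2, with 0.097 without HFD IP index 0. For Htr2c it gave -0.69 (NCD IP index 2) to -0.061 (NCD IP index 0), and for Insr -0.84 (HFD IP index 1) to -0.14 (HFD IP index 3). These intervals reach at least 0.43 log2 units to either side of 0, and none of the 4 passed without the IP libraries with index 0 either, where Cnr1 stood at -0.074.

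In Input, 0 of 7 receptors and 0 of 12478 genes (0%) passed in limma, and 714 genes (5.72%) had an unadjusted p under 0.05. Intervals were narrower there than in IP. Cnr1 stood at -0.07 ± 0.09 (-0.28 to 0.15), Insr at -0.06 ± 0.11 (-0.31 to 0.19), Ntrk2 at -0.03 ± 0.10 (-0.25 to 0.18), Npy2r at -0.09 ± 0.15 (-0.42 to 0.24), Igf1r at 0.10 ± 0.11 (-0.14 to 0.34) and Htr2c at 0.10 ± 0.09 (-0.11 to 0.31). Lepr was the least precise, at -0.41 ± 0.24 (-0.95 to 0.13; adjusted p = 0.875), and its highest Input library was on NCD. The 2 diets overlapped for all 7 receptors in Input, while they did not for 6.8% of all genes.

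**Figure D5:**
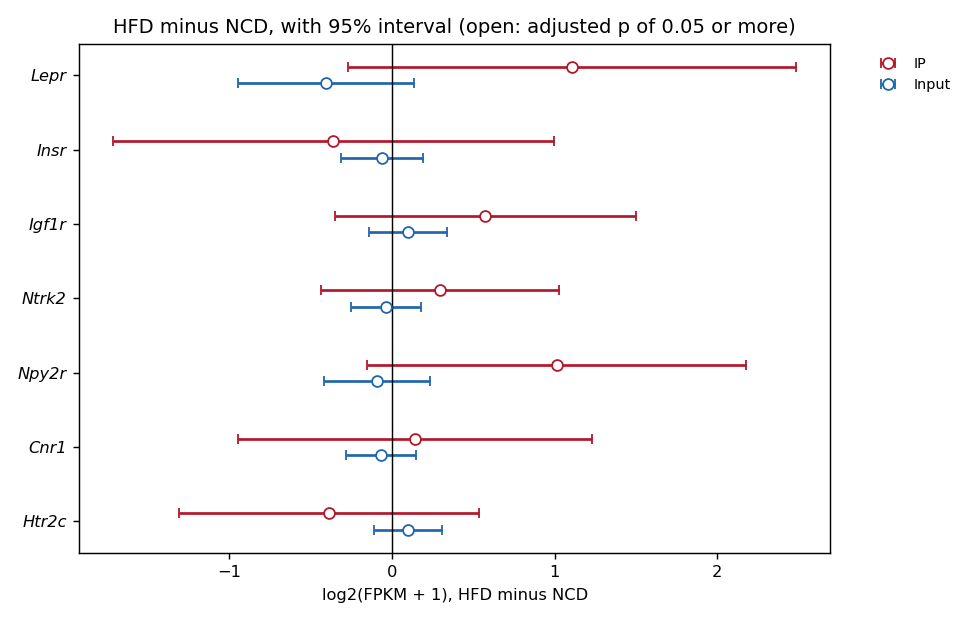
Difference between HFD and NCD in log2(FPKM + 1) for each receptor (horizontal axis) in IP and in Input, with 95% intervals as bars. All points are open because no adjusted p is under 0.05, and the intervals of IP are wider than those of Input.

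The third comparison asked whether the difference between IP and Input itself differed between diets. Of all genes 1 of 12478 (0.00801%) passed, Gm17122, a gene model named here because the count is so small, and 844 genes (6.76%) had an unadjusted p under 0.05. No receptor passed. Lepr came nearest, with 1.51 ± 0.68 (0.06 to 2.96; adjusted p = 0.734), since it was 0.97 higher in IP on HFD and 0.55 lower in IP on NCD. It passed the filter on low values through the HFD IP libraries alone, which favours this direction. Npy2r stood at 1.10 ± 0.55 (-0.07 to 2.28; adjusted p = 0.743), Igf1r at 0.48 ± 0.34 (adjusted p = 0.816), Ntrk2 at 0.33 ± 0.34 (adjusted p = 0.872), Cnr1 at 0.21 ± 0.36 (adjusted p = 0.933), Insr at -0.30 ± 0.59 (adjusted p = 0.941) and Htr2c at -0.48 ± 0.38 (adjusted p = 0.831). The call of Ntrk2 and Npy2r on NCD and not on HFD is therefore not a difference between diets that passed a test. The fit behind these values takes 1 spread for IP and Input. Its standard errors were smaller than those for diet in IP for Cnr1, Igf1r, Insr and Htr2c, and larger for Lepr, Npy2r and Ntrk2. Where IP varied more than Input, these intervals can be too narrow.

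Genes that act with the receptors were counted by fixed lists. The counts for leptin, insulin and IGF, neurotrophin, endocannabinoid, NPY and serotonin genes each include a receptor analysed here. Those of the melanocortin list and of the list of other receptors include none of them. The shares of all genes called in this comparison, 23.4% higher and 20.5% lower in IP over both diets, stand behind every count, and the median of all genes was 0.00. In leptin signalling, 10 of 12 genes were in the table and tested. Of these, 2 were higher in IP, 1 was lower, and the median was -0.10. Leprotl1, a relative of Leprot, averaged 36.8 ± 7.48 FPKM in HFD IP, 44.1 ± 24.8 in NCD IP, 20.3 ± 1.5 in HFD Input and 20.5 ± 1.22 in NCD Input, a difference of 0.87 ± 0.20 (adjusted p = 0.00272; 0.39 and 0.0866 with quantile normalization). Sh2b1, an adaptor that strengthens JAK2 signalling at the leptin receptor, was higher by 0.85 ± 0.26 (adjusted p = 0.0145). Ptpn1, a phosphatase that ends JAK2 signalling, was lower, at -0.91 ± 0.35 (adjusted p = 0.0449). That call was lost, with adjusted p-values of 0.0525 to 0.1, without any 1 library other than HFD IP index 2 or 3 or NCD IP index 1, and with a pseudocount of 0.1 (0.075), quantile normalization (0.0543), array weights (0.142), no filter (0.0519) or without both IP libraries with index 0 (0.1). Stat5b, a transcription factor downstream of JAK2, stood at -0.42 ± 0.21 (adjusted p = 0.114).

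Leprot lies beside Lepr on chromosome 4 and encodes a protein that lowers the amount of leptin receptor at the cell surface. It had the smallest p of the leptin list between diets in IP. It had 3.08, 5.82, 10.3 and 6.45 FPKM in HFD IP, against 1.11, 0.513 and 0.695 FPKM in NCD IP. In Input it had 5.64, 2.65, 4.72 and 3.46 FPKM on HFD and 3.89, 4.13 and 3.81 FPKM on NCD. The HFD libraries of IP were all above the NCD libraries of IP, as for 3.21% of all genes. The NCD IP libraries were all below Input, and 19.4% of all genes were separated in this direction on NCD. The diet difference in IP was 1.98 ± 0.56, and it did not pass after adjustment (adjusted p = 0.813).

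In insulin and IGF signalling, 23 of 28 genes were in the table and tested; 4 were higher in IP, 5 were lower, Insr among them, and the median was 0.01 (-0.31 with quantile normalization). Grb10, an adaptor that restrains the insulin and IGF receptors, averaged 8.46 ± 1.38 FPKM in HFD IP, 8.57 ± 6.21 in NCD IP, 31.2 ± 1.96 in HFD Input and 33.3 ± 3.07 in NCD Input, a difference of -1.90 ± 0.22 (adjusted p = 5.9e-06). Irs4, a docking protein of these receptors that is abundant in hypothalamus, was also lower, at -1.83 ± 0.26 (adjusted p = 4.3e-05). Igf2, a growth factor ligand, was higher, at 1.5 ± 0.34 (adjusted p = 0.00211). Igf2 also had the smallest p of the list between diets in IP, with 77.8, 289, 74.2 and 71.9 FPKM on HFD and 64.6, 31.2 and 38.2 FPKM on NCD, 1.28 ± 0.48 (adjusted p = 0.813).

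In neurotrophin signalling, 12 of 15 genes were in the table and tested, 3 were higher in IP, 3 were lower, Ntrk2 among them, and the median was 0.08 (-0.14 with quantile normalization). Shc3, a neuronal adaptor of Trk receptors, was higher in IP by 1.93 ± 0.16 (adjusted p = 1.6e-07). Frs2, another docking protein of these receptors, was lower, at -0.62 ± 0.16 (adjusted p = 0.00554). Ndfip1, an adaptor of ubiquitin ligases, was higher at 0.52 ± 0.14 (adjusted p = 0.00784) but stood at -0.26 with quantile normalization. Ngfr, the p75 receptor, had the smallest p between diets in IP, at -1.31 ± 0.57 (adjusted p = 0.813), with 0.299 to 2.69 FPKM on HFD and 2.77 to 5.74 FPKM on NCD.

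Among the endocannabinoid genes, 10 of 12 were in the table and 9 were tested; 3 were higher in IP, Cnr1 was the 1 that was lower, and the median was 0.38. Cnrip1, a protein that binds the tail of the CB1 receptor, was higher by 1.16 ± 0.21 (adjusted p = 0.000436), with 37.8 ± 15.6 FPKM in HFD IP, 39.0 ± 10.8 in NCD IP, 16.6 ± 0.844 in HFD Input and 15.1 ± 0.658 in NCD Input. The receptor and its binding protein thus lay on opposite sides of Input. Mgll and Abhd12, which break down the endocannabinoid 2-AG, were higher by 0.99 ± 0.30 (adjusted p = 0.0153) and 0.66 ± 0.16 (adjusted p = 0.00391). The Abhd12 difference was 0.04 and no longer called with quantile normalization. Abhd6, another such enzyme, stood at 0.49 ± 0.25 (adjusted p = 0.121). Napepld, which makes anandamide and related lipids, had the smallest p between diets in IP, at 1.07 ± 0.47 (adjusted p = 0.813).

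Of the NPY list, 4 of 9 genes were in the table and 3 were tested: Npy2r was lower in IP, and neither Npy nor Npy1r passed. The median was -0.06 (0.12 without the IP libraries with index 0). Npy, the ligand, was listed at 0, 9.96, 13.9 and 22.2 FPKM in HFD IP and at 7.52, 9.89 and 40.7 FPKM in NCD IP. Its Input values were 5.48, 4.35, 2.02 and 5.29 FPKM on HFD and 3.62, 3.57 and 2.34 FPKM on NCD. The difference between fractions was 1.28 ± 0.59 (adjusted p = 0.0927). Npy1r, the receptor through which NPY drives feeding, stood at -0.06 ± 0.30 between fractions (adjusted p = 0.891) and at 0.89 ± 0.62 between diets in IP (adjusted p = 0.841).

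In the melanocortin list, 9 of 13 genes were in the table and tested, 3 were higher in IP, 1 was lower, and the median was 0.26. Pomc, the precursor of the melanocortin agonists, had 22.8, 15.7, 11.5 and 8.33 FPKM in HFD IP and was listed at 0, 5.07 and 5.76 FPKM in NCD IP. Input libraries held 0.484, 2.0, 1.12 and 1.09 FPKM on HFD and 1.33, 1.27 and 1.15 FPKM on NCD. It was higher in IP by 1.71 ± 0.40 (adjusted p = 0.00275; 0.0653 with a pseudocount of 0.1). The 4 HFD values in IP were above the 3 NCD values, as for 3.21% of all genes, and the diet difference was 2.09 ± 0.71 (adjusted p = 0.813). Pcsk2, a protease that cuts Pomc into its peptides, was higher by 1.05 ± 0.13 (adjusted p = 1.3e-05; 0.31 and 0.0654 with quantile normalization). Atrn, a transmembrane protein needed for agouti to act in mouse skin, was lower, at -0.68 ± 0.22 (adjusted p = 0.0199), while its relative Atrnl1 was higher, at 0.60 ± 0.21 (adjusted p = 0.0281). The Atrnl1 call was lost with quantile normalization (adjusted p = 0.272), with median-ratio scaling (0.0523) and without the NCD IP library with index 0 (0.0575). It was also lost without the HFD Input libraries with index 1 (0.054) or 2 (0.0525) and without any 1 of the 3 NCD Input libraries (0.0515 to 0.0616).

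In the serotonin list, 11 of 17 genes were in the table and 9 were tested, 2 were higher in IP, 1 was lower, and the median was 0.33. Htr7, at 0.68 ± 0.21 (adjusted p = 0.017), and Htr1d, at 0.98 ± 0.32 (adjusted p = 0.0222), both serotonin receptors, were the 2 that were higher. The Htr1d call was lost without the library with index 2 of NCD IP (adjusted p = 0.0527) or of NCD Input (0.0536). Maoa, which degrades serotonin, was lower, at -0.71 ± 0.19 (adjusted p = 0.00734), with 3.44 ± 0.673 FPKM in HFD IP, 3.48 ± 0.504 in NCD IP, 6.08 ± 0.433 in HFD Input and 6.46 ± 0.0518 in NCD Input. Htr1a, an inhibitory receptor, stood at 0.44 ± 0.23 between fractions (adjusted p = 0.14). Between diets in IP it was at -1.03 ± 0.56 (adjusted p = 0.813), with 1.51 to 2.26 FPKM on HFD and 2.59 to 7.89 FPKM on NCD, without overlap, as 3.13% of all genes were in this direction.

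Other receptors and receptor partners with roles in feeding were counted too. Of 61 such genes 43 were in the table and 37 were tested, 6 were higher in IP, 3 were lower, and the median was 0.01 (-0.03 with median-ratio scaling). Ramp3 and Ramp2, which pair with the calcitonin receptor and its relative, were higher by 2.63 ± 0.20 (adjusted p = 7.3e-08) and 1.64 ± 0.23 (adjusted p = 3.4e-05). Ramp3 is also on the list of thalamus markers, of which 6 of the 7 tested, Ramp3 among them, were higher in IP and 1, Rora, was lower. Thra, a thyroid hormone receptor, was higher by 1.34 ± 0.20 (adjusted p = 5.7e-05), and Drd2, a dopamine receptor, by 1.27 ± 0.23 (adjusted p = 0.000392). Oprd1, the delta opioid receptor, had the smallest p of the list between diets in IP, at 1.69 ± 0.61 (adjusted p = 0.813), with 9.67, 1.46, 1.74 and 2.32 FPKM on HFD and listed at 0, 0.703 and 0.0718 FPKM on NCD. No gene of any of the 8 lists passed the diet comparison in IP, and the list medians there were between -0.10 and 0.89, the highest from the 3 NPY genes.

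The genes whose pattern over the 14 libraries was most like that of each receptor were found by the root mean square difference of log2(FPKM + 1), after each gene was centred on its own mean. All libraries and their composition are shared between the genes of a pair, so likeness is a description only. Nearest to Igf1r were Gria3, a glutamate receptor subunit, at 0.128, and Fam13b at 0.171. Nearest to Htr2c were Napb, a protein of vesicle fusion, at 0.141, and Scd2, a fatty acid desaturase, at 0.17. Impad1 (0.157) and Purb (0.174) were nearest to Ntrk2, and Map3k20 and Trim2 (0.175 each) to Cnr1. Npy2r had Fsd1l (0.231) and Plagl2 (0.25), Insr had Gpd2 (0.293) and Ptchd4 (0.299), and Lepr had Klhl14 (0.379) and Tmod3 (0.38). The receptors' own root mean square deviations from their means, on the same scale, were 0.278 for Igf1r, 0.357 for Htr2c, 0.449 for Ntrk2, 0.554 for Cnr1, 0.751 for Npy2r, 0.664 for Insr and 0.716 for Lepr, so a small distance was easier to reach for the receptors that varied least.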

How the data were processed

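RNA of immunoprecipitated ribosomes and of Input was pre-amplified with poly(T) and random primers and made into Nextera XT libraries, per the labels' protocols. Per the submitters' processing notes, the tools include Cuffdiff, Cufflinks 2.2.1, StringTie 1.3.4d and HISAT2 2.1.0, with the build GRCm38.p6 and no role or order. The authors deposited FPKM values for 14 libraries; how libraries were scaled to each other is not given in the sources used here. The authors also deposited an IP to Input ratio (fold) for each of 7 pairs of columns, an unadjusted p-value and a score, the log2 of the mean HFD ratio over the mean NCD ratio. Columns carry an index from 0 in place of the labels' numbers, so they were assigned to groups only, and 0 columns lacked a group. Each ratio equalled IP over Input of 1 diet and 1 index in 96385 of 96385 entries (relative tolerance 0.001).

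The deposited FPKM were tested for every gene whose mean reached 1 FPKM (12478 of 14519 symbols; of entries sharing a symbol, the one with the highest mean), as log2(FPKM + 1), with limma 3.58.1 in R 4.3.3 (trended empirical Bayes, two-sided, Benjamini-Hochberg over all genes tested, threshold 0.05). Diets were compared within each fraction. The fractions, and the difference between diets, came from 1 fit of 4 group means. That fit takes 1 spread for IP and Input, though IP libraries of 1 group were less alike (r = 0.720 to 0.917 against 0.970 to 0.981). Its standard errors can therefore be too small where IP carries most of the spread. IP and Input were fitted as independent, though the same lysates may lie behind both. Nothing says more of the libraries than that each comes from a pool, so p-values measure the spread between libraries. The fit was checked on simulated data. FPKM near 0 were not whole multiples of a read (2094 values above 0 lay below 1e-06), so depth is unknown, and no counting intervals are given.

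The receptors and lists were chosen with earlier results of these data known. In each list the up to 4 genes other than the receptors with the smallest p between fractions, and the 1 with the smallest p between diets in IP, are named, except 2 that are not reported here; marker sums stand beside the receptors they bear on. Positions, lengths and sequences are from GENCODE M21. Alternatives were a pseudocount of 0.1, no filter, a minimum of 5 FPKM, quantile and median-ratio scaling, array weights, other sets of libraries, a block by column index and leaving out each library. Deviations of same-index IP and Input columns were hardly correlated, which cannot exclude pairing, as given with those alternatives. No 2 libraries held identical values (0 pairs).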

Additional observations from a re-analysis of the deposited data

Results flagged for a closer look

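In 2 of the 14 sets of 4 libraries tested (7 receptors, HFD IP and HFD Input), 1 library lay far from the others of its group, with a gap to the nearest library, divided by the range of the group, above the 95% critical value of Dixon's test for 4 samples. Chance flags about 1 in 20 sets. In HFD IP, Insr had 17.2 FPKM in the library with index 1, against 3.31 to 4.86 FPKM in the other 3, and the gap took 0.888 of the range. Ntrk2 had 109 FPKM in the HFD IP library with index 0, against 58.0 to 66.3 FPKM in the other 3, a gap of 0.838 of the range. That library had 9.57% of its entries listed at 0 and the highest sum of astrocyte markers of its group, 482 FPKM. Without the high library, the difference between IP and Input on HFD was -1.46 for Insr and -0.74 for Ntrk2, both past the threshold. With all libraries neither was called in limma (adjusted p = 0.0644 and 0.0743). The library left out was chosen for its high value in IP, so leaving it out could only make the difference more negative. These 2 calls are therefore no support for a lower level in IP.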

How the results depend on the processing

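Calls that changed are given with the receptors and, for scaling and array weights, together above. In addition, Htr2c was called lower on HFD with HFD libraries only (adjusted p = 0.0261), and without both IP libraries with index 0 it was called lower on HFD (0.00458) and over both diets (-0.56, 0.00282), as Ntrk2 was lower (0.000571) and Lepr higher (0.00174) on HFD. Lepr had passed the filter on low values through HFD IP alone. Leaving aside the fits without 1 library, 319 receptor values kept direction and side of the threshold, 17 came past it, 3 lost it and 6 reversed. Counts of called genes moved beyond 1.5 times for diet in IP (0; 1 with array weights, 75 with all 14 libraries in the fit), for IP against Input on NCD (3314; 2032 with NCD libraries only, 5007 without the IP libraries with index 0) and for the difference between diets (1; 0 with array weights, 12 without those libraries). Leaving out 1 library gave 0 to 0 genes for diet in IP, 0 to 1 for diet in Input, 4682 to 6198 for IP against Input over both diets, 2150 (NCD Input index 1) to 3989 on NCD, 3263 to 4318 on HFD, and 1 to 128 for the difference (7 without NCD IP index 0 and 128 without NCD IP index 1). Of called genes, 59.2% on NCD and 56.6% on HFD were higher in IP. With quantile normalization these shares were 41.9% and 43.9%, and the median of all genes moved by about -0.1. A minimum of 5 FPKM left 5 of 7 receptors, without Lepr and Npy2r. Over both diets the median was then 0.16 for all genes left and -0.70 for these 5 receptors.

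Reversed directions, none of them called, were Cnr1 for diet in IP (-0.074) and for the difference (-0.0076) without the IP libraries with index 0, Insr for the same comparisons with array weights (0.068 and 0.15), Igf1r on HFD with quantile normalization (-0.17) and Lepr over both diets with a pseudocount of 0.1 (-1.04e-05). Leaving out 1 library gave ranges across 0 for Cnr1 (-0.045 to 0.29, diet in IP), Ntrk2 (-0.11 to 0.047) and Insr (-0.13 to 0.018) for diet in Input, and Htr2c (-0.43 to 0.20) for IP against Input on NCD. The cause was not tested.

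With columns of 1 index as a replicate block, counts were 5170 over both diets, 2855 on NCD, 3770 on HFD, 1 for the difference and 0 for diet in each fraction, and the same 4, 3 and 1 receptors were called; the call of Ptpn1 was lost (adjusted p = 0.0514). Deviations of same-index IP and Input columns correlated at -0.00378 to 0.058. Those of HFD and NCD columns correlated at -0.0254 to 0.0352 in IP and at 0.0509 to 0.124 in Input, where 2 of 3 pairs passed 0.1. These values cannot decide whether index pairs the libraries, because IP libraries of 1 group correlated less with each other than Input libraries did. The deposited ratios divide columns of the same index. Depth is unknown.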
